A study of Rattus norvegicus with 10 samples.

Results

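The expression of 33 genes of glycolysis, lactate transport, glycogen turnover and the response to low oxygen was followed in injured rat heart with and without BT2. The genes were given as a set of symbols, and a gene counted as a member when its symbol was present in the tissue count table and in both nuclear matrices. All 33 were present, among 31580 genes in the tissue table and 39537 features in the nuclear matrices. They comprised 17 glycolytic enzymes, 2 lactate transporters, 4 bifunctional enzymes that make and break fructose-2,6-bisphosphate, 2 alpha subunits of the hypoxia-inducible factor (HIF) with 2 prolyl hydroxylases, 4 further hypoxia response genes and 2 glycogen enzymes.

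Rats underwent ligation of the left coronary artery followed by reperfusion, and RNA came from the area at risk (AAR), the myocardium downstream of the tied vessel. The rats were treated with vehicle or with BT2, a compound whose code name alone is used here. Tissue RNA was collected at 4 h and at 24 h, giving 4 groups (vehicle 4 h, BT2 4 h, vehicle 24 h, BT2 24 h) of 2 libraries each, and nuclei were profiled at 24 h from 1 vehicle and 1 BT2 library, the latter at 100 mg/kg. All groups shared the ischaemia and reperfusion injury, and no uninjured heart was among the libraries analysed here. Whether the times run from ligation, as in the titles, or from the injury, as in the series text, is not settled. The sources used here do not give the strain, sex and age of the rats or the BT2 dose of the tissue samples. Nor do they say if replicate libraries represent different animals, so p-values measure the spread between these libraries, which may be technical.

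Tissue libraries held 10397310 to 24480984 counts, and the 2 libraries of each group correlated across genes at r = 0.981 to 0.990. Of the 33 genes, 32 passed the filter on low counts. The exception was Tpi1 (triosephosphate isomerase), with 0 to 10 counts per library. Tpi1, Gapdh, Pgam1, Eno1 and Ldha are among the genes with near-identical processed copies in rodent genomes, and the sources used here do not say how reads matching several places were counted, so their levels are uncertain. Of 12 cardiomyocyte markers, none was at 0 in any tissue library.

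Glycolysis splits glucose into pyruvate and yields ATP without oxygen, which matters in heart muscle when its blood supply stops. Several steps are run by isoenzymes from different genes: Pfkm, Eno3 and Pgam2 encode the forms that predominate in striated muscle, and Pfkp, Eno1 and Pgam1 encode forms found in most tissues. HIF-1 and HIF-2 raise the transcription of many glycolytic genes when oxygen is low, and prolyl hydroxylases mark the HIF alpha subunits for destruction when oxygen is present. Since HIF is regulated mainly through protein stability, its transcript levels do not measure its activity.

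The sequence that HIF binds carries the core ACGTG or GCGTG. Promoters of 4 members are printed because they show the range of this core among the genes described below: Bnip3 and Ankrd37 as hypoxia response genes, and Pgam1 and Pgam2 as an isoform pair that moved in opposite directions at 24 h. The latter pair was chosen after its values were seen. Each line gives the 250 bases before the RefSeq start on the gene's strand, with cores on either strand in capitals. The coordinates are those of the rat build GRCr8, not of the build to which the reads were aligned. They are chr1:203154963-203155212 (minus strand) for Bnip3, chr16:53001257-53001506 (plus) for Ankrd37, chr1:250672902-250673151 (plus) for Pgam1 and chr14:84897875-84898124 (minus) for Pgam2.
Bnip3: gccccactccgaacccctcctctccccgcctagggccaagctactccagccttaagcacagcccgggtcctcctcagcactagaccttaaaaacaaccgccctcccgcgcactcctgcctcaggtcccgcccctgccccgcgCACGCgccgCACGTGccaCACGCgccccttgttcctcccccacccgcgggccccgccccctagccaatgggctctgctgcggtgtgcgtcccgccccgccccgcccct
Ankrd37: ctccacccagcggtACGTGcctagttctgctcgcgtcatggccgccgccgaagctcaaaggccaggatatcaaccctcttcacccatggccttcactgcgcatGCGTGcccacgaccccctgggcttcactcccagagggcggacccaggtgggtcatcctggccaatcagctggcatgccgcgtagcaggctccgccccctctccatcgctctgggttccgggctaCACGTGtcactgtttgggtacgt
Pgam1: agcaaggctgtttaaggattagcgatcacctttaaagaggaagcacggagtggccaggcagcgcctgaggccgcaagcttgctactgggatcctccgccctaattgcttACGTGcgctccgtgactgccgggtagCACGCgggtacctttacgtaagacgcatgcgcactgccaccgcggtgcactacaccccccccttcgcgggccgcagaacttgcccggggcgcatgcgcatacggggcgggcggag
Pgam2: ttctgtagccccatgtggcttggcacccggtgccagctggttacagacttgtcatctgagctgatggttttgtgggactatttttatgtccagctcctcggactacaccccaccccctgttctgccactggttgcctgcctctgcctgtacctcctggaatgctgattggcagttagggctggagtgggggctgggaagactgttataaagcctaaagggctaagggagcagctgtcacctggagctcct

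Bnip3 and Ankrd37 held 4 matches each, where the palindrome CACGTG counts once on each strand, Pgam1 held 2 and Pgam2 held 0. A promoter was found for 31 of the 33 members (none for Bnip3l and Pgk1), and where several starts were listed, as for Aldoa, Eno1 and Hk1, the first was used. At least 1 core was present in 16 of 31 members (51.6%) and in 10400 of 27457 genes in all (37.9%). Adm and Egln3, both known as HIF targets, held 0 matches in this window. Among members with a promoter, 6 of the 12 that were higher with BT2 at 24 h held a core, and so did all 4 that were lower. A match describes these letters and is no evidence of binding.

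With BT2 at 24 h, the muscle forms of phosphofructokinase, enolase and phosphoglycerate mutase were higher than in vehicle and their ubiquitous partners were lower. The prolyl hydroxylase genes Egln1 and Egln3, the mitophagy receptors Bnip3 and Bnip3l and both glycogen enzymes were also higher, while Hif1a was lower. In all, 13 members rose and 4 fell (edgeR quasi-likelihood test, Benjamini-Hochberg adjusted p under 0.05), against 39.5% of the 15216 genes tested, 18.9% higher and 20.7% lower. The median log2 fold change of the members was 0.26, and that of all genes tested was -0.0063. The 2 libraries of each treatment did not overlap for 27 of the 32 tested members, against 77.3% of all genes. Levels below are CPM, counts relative to the scaled library total and not to gene length, so levels of different genes are not compared.

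Among the isoform pairs at 24 h, Pfkm, the muscle phosphofructokinase at the main control step of glycolysis, stood at 222 and 206 CPM in vehicle and 635 and 507 CPM with BT2. Both BT2 libraries lay far above both vehicle libraries, a rise of 1.42 ± 0.15 (log2, SE) or 2.67-fold (edgeR adjusted p = 0.000727). Pfkp, the platelet-type form of the same enzyme, was at 105 and 128 CPM in vehicle and at 42.3 and 50.7 CPM with BT2. The groups did not overlap, and Pfkp fell by 1.33 ± 0.17 on the log2 scale (edgeR adjusted p = 0.0012).

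Enolase showed the same pair of directions. Eno3, the muscle form, was at 147 and 128 CPM in vehicle and at 299.8 and 314 CPM with BT2, with no overlap and a log2 change of 1.16 ± 0.11 (edgeR adjusted p = 0.000655). Eno1, the form of most tissues, was at 390.2 and 397 CPM in vehicle and at 245 and 272 CPM with BT2. It fell by 0.61 ± 0.10 on the log2 scale (edgeR adjusted p = 0.00295), again without overlap.

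Pgam2, the muscle phosphoglycerate mutase, rose from 147 and 120.3 CPM in vehicle to 368 and 288 CPM with BT2, a log2 change of 1.29 ± 0.16 (edgeR adjusted p = 0.00116). Pgam1, the form of most tissues, was at 439 and 414 CPM in vehicle and at 233 and 244 CPM with BT2. The vehicle libraries were the high ones here, and Pgam1 fell by 0.84 ± 0.11 on the log2 scale (edgeR adjusted p = 0.00125). These 6 calls were kept under all 9 alternatives of normalisation, tool, filter, library set and left-out library.

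**Figure D1:**
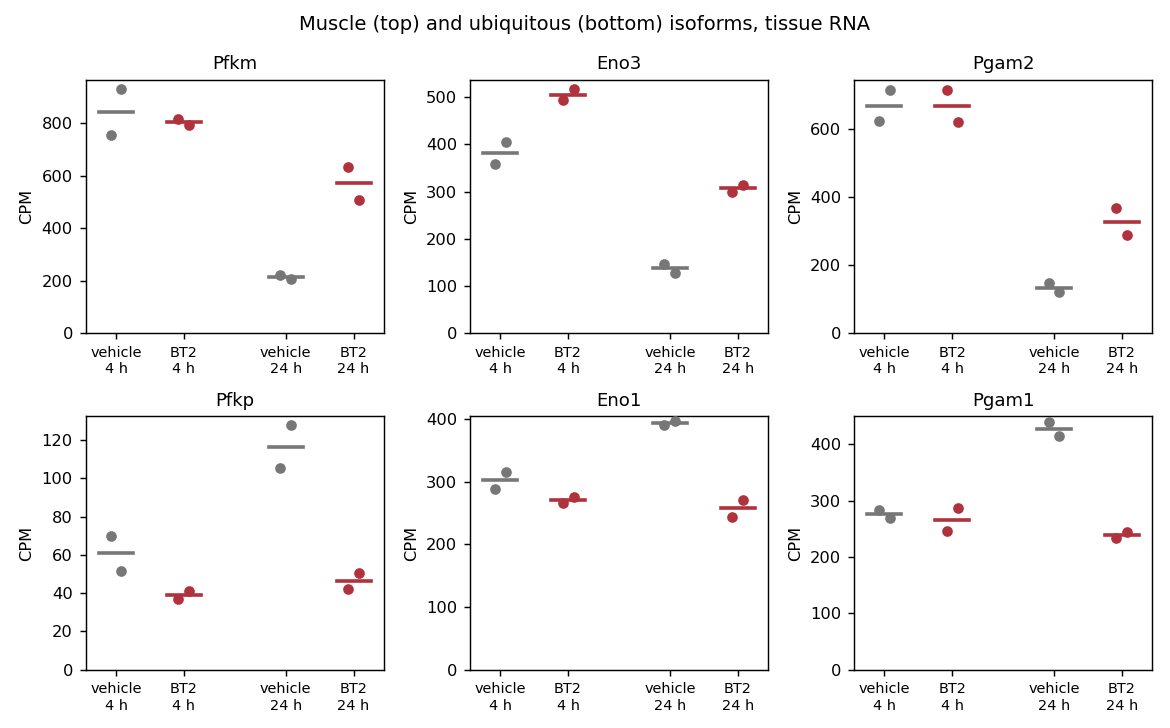
CPM (vertical axes) of the muscle isoforms Pfkm, Eno3 and Pgam2 and of the ubiquitous isoforms Pfkp, Eno1 and Pgam1 in each of the 8 tissue libraries, by group. Points are single libraries and horizontal lines are group means. At 24 h both BT2 libraries lie above both vehicle libraries for the muscle isoforms and below them for the ubiquitous isoforms.

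The ratio of the paired isoforms within a library does not depend on how libraries are scaled, and gene length cancels when groups are compared. At 24 h the log2 ratio of Pfkm to Pfkp counts was 1.08 and 0.68 in vehicle and 3.91 and 3.32 with BT2. The difference was 2.73 ± 0.35 (here and for the ratios below, the pooled SD within groups, n = 2 against 2), or 6.66-fold. For Eno3 over Eno1 the vehicle libraries gave log2 ratios of -1.41 and -1.64 and the BT2 libraries 0.29 and 0.21, a difference of 1.77 ± 0.12 or 3.42-fold. The Pgam2 over Pgam1 ratio gave -1.58 and -1.78 in vehicle against 0.66 and 0.24 with BT2, a difference of 2.13 ± 0.23 or 4.37-fold. In all 3 pairs the groups did not overlap, with an exact two-sided permutation p of 0.333, the smallest that 2 against 2 libraries allow.

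At 4 h the difference between the treatments was smaller than at 24 h in all 3 pairs. Eno3 over Eno1 was 0.32 and 0.35 (log2) in vehicle and 0.89 and 0.91 with BT2, a difference of 0.56 ± 0.02 (exact permutation p = 0.333). Pfkm over Pfkp was 3.44 and 4.16 in vehicle and 4.46 and 4.27 with BT2, a difference of 0.57 ± 0.38 (exact permutation p = 0.333). The groups did not overlap in these pairs. Pgam2 over Pgam1 differed by 0.05 ± 0.25 (exact permutation p = 1), and its groups overlapped.

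**Figure D2:**
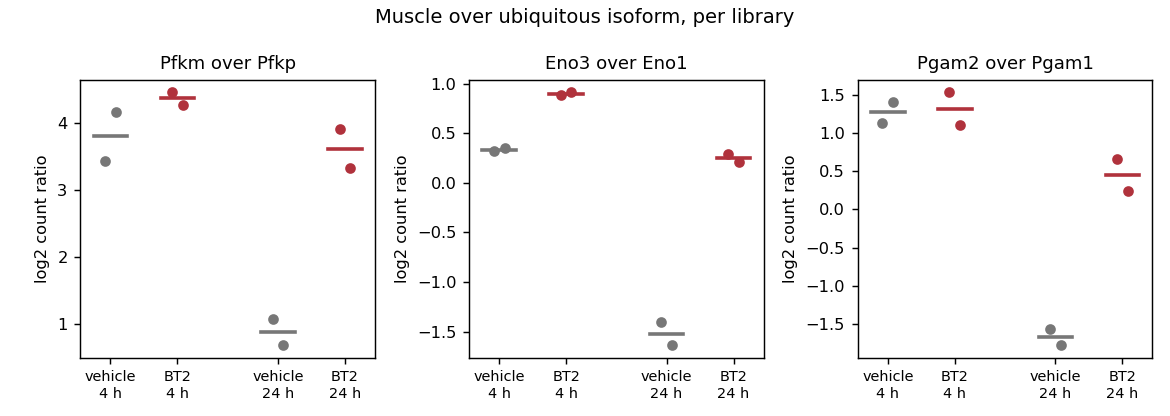
Log2 ratio of counts of the muscle isoform over the ubiquitous isoform (vertical axis) in each tissue library, for the pairs Pfkm/Pfkp, Eno3/Eno1 and Pgam2/Pgam1 by group. Points are single libraries and horizontal lines are group means. The vehicle libraries at 24 h are the lowest in every pair.

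Over time the same ratios were lower at 24 h in both treatments, and in vehicle by more. From 4 h to 24 h, Pfkm over Pfkp changed by -2.92 (log2) in vehicle and -0.75 with BT2. Eno3 over Eno1 changed by -1.86 and -0.65, and Pgam2 over Pgam1 by -2.96 and -0.88. The difference between the BT2 effects at 24 h and 4 h passed the edgeR test for Pfkm (1.48, adjusted p = 0.0174), Pgam2 (1.30, adjusted p = 0.023), Eno3 (0.75, adjusted p = 0.0337) and Pgam1 (-0.79, adjusted p = 0.0286). The 4 calls were lost when single libraries were left out, among them BT2 4 h replicate 2, vehicle 24 h replicates 1 and 2 and BT2 24 h replicate 1, with adjusted p up to 0.141 for Eno3.

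Cardiomyocyte markers moved with the muscle isoforms. Of 12 tested, 10 were higher with BT2 at 24 h and 0 lower by edgeR (11 and 0 at unadjusted p under 0.05, 11 and 0 by DESeq2), with log2 changes from 0.33 to 1.16. Their summed level was 29700 and 30800 CPM in vehicle at 24 h and 64000 and 47300 CPM with BT2, against 84700 to 99600 CPM in the 4 libraries at 4 h. The 12 macrophage or monocyte markers moved the other way, with 1 higher and 7 lower, and summed to 3240 and 3900 CPM in vehicle and to 1220 and 1440 CPM with BT2. None of these markers was at 0. Beside these counts, 18.9% of all genes tested were called higher and 20.7% lower. Other marker lists moved as well. Among them were mesothelial markers (3 of 3 tested higher), Schwann markers (5 higher and 1 lower of 7) and dendritic markers (0 higher and 4 lower of 7). The summed level of the Schwann markers went the other way from their calls, at 384 and 431 CPM in vehicle and 281 and 286 CPM with BT2. The part of the markers in the isoform values was not tested, and in tissue RNA fewer cells of a type cannot be told apart from less RNA per cell.

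The remaining glycolytic enzymes changed less at 24 h. Aldoa, the muscle aldolase, was at 1579 and 1676 CPM in vehicle and 2489.9 and 2200.0 CPM with BT2, a log2 change of 0.53 ± 0.14 (edgeR adjusted p = 0.0173). Gapdh, which makes NADH in the pathway, was at 1231 and 1223 CPM and at 1634.5 and 1514 CPM, a log2 change of 0.36 ± 0.12 (edgeR adjusted p = 0.0469). Neither gene's libraries overlapped, but the Aldoa call was lost without vehicle 24 h replicate 1 or 2 or BT2 24 h replicate 1 (adjusted p up to 0.12). The Gapdh call was lost without any one of the 4 libraries at 24 h (adjusted p up to 0.197), with the replicate block and without the filter. Hk1, Hk2, Gpi, Pfkl, Aldoc, Pgk1, Pkm and Ldha did not pass at 24 h, with log2 values from -0.43 (Hk2) to 0.42 (Aldoc). Ldha, the lactate dehydrogenase subunit that favours lactate formation, was at 388 and 374 CPM in vehicle and 361 and 343 CPM with BT2, and its interval for the log2 change ran from -0.40 to 0.18.

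Both glycogen enzymes rose at 24 h. Pygm, the muscle phosphorylase that releases glucose from glycogen, was at 431 and 455 CPM in vehicle and 1183 and 931 CPM with BT2. That was a log2 change of 1.25 ± 0.17 (edgeR adjusted p = 0.00135) with wide separation of the groups. Gys1, the muscle glycogen synthase, was at 99.1 and 94.7 CPM and at 159 and 128 CPM, a log2 change of 0.57 ± 0.14 (edgeR adjusted p = 0.0129). The Gys1 call was lost without either vehicle library at 24 h or without BT2 24 h replicate 1 (adjusted p up to 0.1). At 4 h Pygm was at 1259.6 and 1640.0 CPM in vehicle and 1309 and 1399 CPM with BT2, which overlapped.

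Genes of the same pathways outside the 33 gave a wider view. Of 21 tested of 22 other glycogen genes, 11 rose and 0 fell at 24 h (12 and 0 at unadjusted p under 0.05, 10 and 0 by DESeq2). Of all genes tested, 18.9% were called higher and 20.7% lower. The cardiomyocyte markers moved the same way, 10 of 12 higher, and their part in the glycogen genes was not tested. The genes that rose included Phkg1, the muscle catalytic subunit of phosphorylase kinase (2.82 ± 0.21 log2, edgeR adjusted p = 0.000331), its regulatory subunit Phkb (0.88 ± 0.11) and Pygb, the brain phosphorylase (1.35 ± 0.12). Phkg1 stood at 1.04 and 0.99 CPM in vehicle and 6.87 and 7.58 CPM with BT2. Of 17 tested of 23 other glycolysis and sugar phosphate genes, 4 rose and 3 fell, together 7 of 17 against 39.5% of all genes called, a share near the background. Ldhb, the heart lactate dehydrogenase subunit, was at 1593 and 1494 CPM in vehicle and 3789 and 3005 CPM with BT2 (1.14 ± 0.17 log2, edgeR adjusted p = 0.00218), and Hk3, a hexokinase of myeloid cells, fell by 2.14 ± 0.36 on the log2 scale (edgeR adjusted p = 0.00388).

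At 24 h all 4 genes of the HIF subunit and hydroxylase group passed the test, beside 39.5% of all genes tested. Hif1a, the HIF-1 alpha subunit, was at 204 and 154 CPM in vehicle and 88.6 and 107 CPM with BT2, and it fell by 0.87 ± 0.18 on the log2 scale (edgeR adjusted p = 0.0071). Epas1, the HIF-2 alpha subunit, was at 234 and 211 CPM and at 290.5 and 315 CPM, a log2 change of 0.44 ± 0.11 (edgeR adjusted p = 0.0146). The groups did not overlap in either gene, and the 2 alpha subunits moved in opposite directions. The Hif1a call was lost without BT2 24 h replicate 1 (adjusted p = 0.0579), and the Epas1 call without vehicle 24 h replicate 2 or BT2 24 h replicate 2 (adjusted p up to 0.125).

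Egln1, the main prolyl hydroxylase acting on HIF, was at 58.4 and 54.6 CPM in vehicle at 24 h and at 116 and 97.6 CPM with BT2. This was a log2 change of 0.92 ± 0.11 (edgeR adjusted p = 0.00109). Its BT2 libraries were close to the 4 h libraries, which ranged from 108 to 124 CPM in both treatments. Egln3, a prolyl hydroxylase that HIF itself induces, was at 139 and 114 CPM in vehicle and 184 and 202 CPM with BT2, a log2 change of 0.61 ± 0.15 (edgeR adjusted p = 0.013) without overlap. The Egln3 call was lost without vehicle 24 h replicate 2 or BT2 24 h replicate 2 (adjusted p up to 0.102).

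Among the other hypoxia response genes, Bnip3, a mitochondrial receptor for mitophagy and cell death, was at 56.0 and 49.3 CPM in vehicle at 24 h and at 104 and 102 CPM with BT2. It rose by 0.96 ± 0.14 on the log2 scale (edgeR adjusted p = 0.00169). Its relative Bnip3l was at 99.8 and 100.2 CPM and at 118 and 131 CPM, a log2 change of 0.32 ± 0.09 (edgeR adjusted p = 0.0259) that was lost without vehicle 24 h replicate 1 or 2 or BT2 24 h replicate 2 (adjusted p up to 0.136). Ankrd37, a small ankyrin repeat gene induced by HIF-1, was at 0.83 to 1.75 CPM in every library and passed at neither time. Its interval for the log2 change at 24 h ran from -0.44 to 1.23, so the direction was not detectable at this depth.

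**Figure D3:**
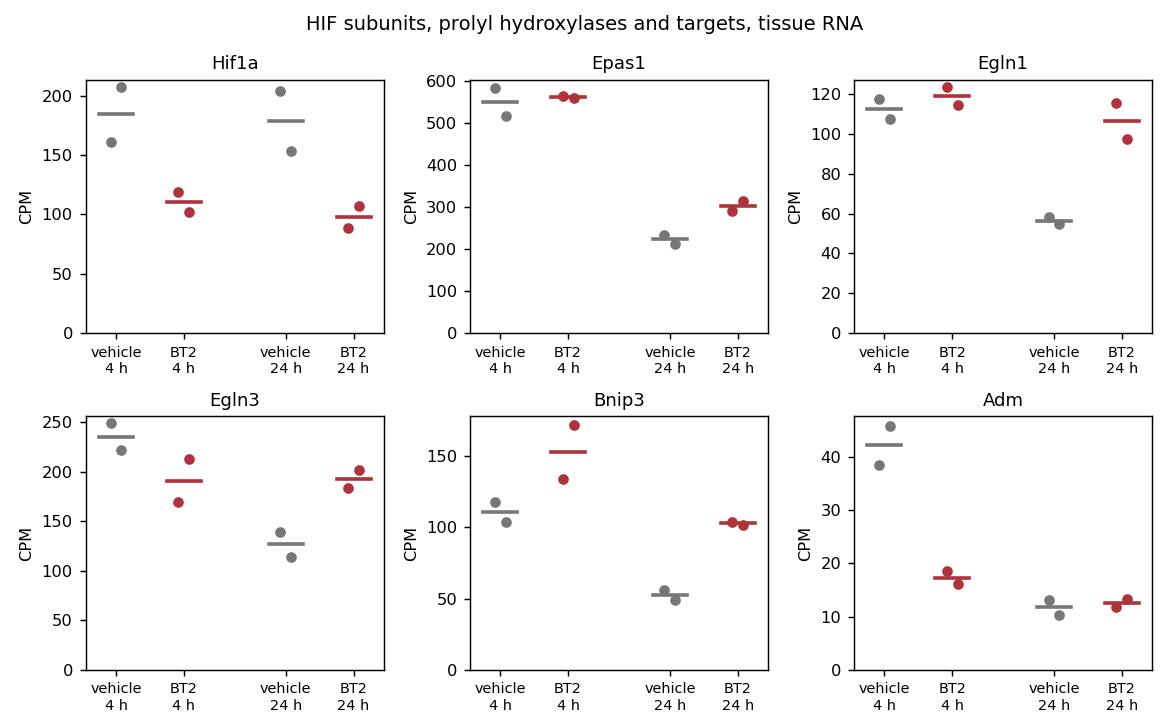
CPM (vertical axes) of Hif1a, Epas1, Egln1, Egln3, Bnip3 and Adm in each of the 8 tissue libraries, by group. Points are single libraries and horizontal lines are group means. At 24 h Egln1, Egln3, Bnip3 and Epas1 are higher with BT2 and Hif1a is lower, and at 4 h Adm and Hif1a are lower with BT2.

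Of 37 tested of 40 other HIF targets, 11 rose and 10 fell with BT2 at 24 h, beside 18.9% and 20.7% of all genes. Pdk1, which limits pyruvate entry into the mitochondria, was at 207 and 188 CPM in vehicle and 426 and 389 CPM with BT2 (1.04 ± 0.11 log2, edgeR adjusted p = 0.000718). Fam162a and Mxi1 rose by 1.02 ± 0.16 and 0.64 ± 0.11. The collagen-modifying genes P4ha1 and Lox fell by 0.98 ± 0.12 and 1.15 ± 0.18 (edgeR adjusted p = 0.00109 and 0.00256). Of 12 tested of 14 other regulators of HIF, 0 rose and 0 fell by edgeR (1 higher and 3 lower at unadjusted p under 0.05, 0 and 0 by DESeq2).

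The lactate transporters did not pass at 24 h. Slc16a1 (MCT1) was at 396 and 394 CPM in vehicle and 539.6 and 419.8 CPM with BT2, a log2 difference of 0.28 (edgeR adjusted p = 0.186). Slc16a3 (MCT4), the low-affinity exporter of glycolytic cells, was at 32.5 and 33.4 CPM in vehicle and 5.11 and 14.4 CPM with BT2. The BT2 libraries were both lower and differed widely from each other, and the log2 difference of -1.75 ± 0.71 missed the threshold (edgeR adjusted p = 0.0929). Of the bifunctional enzymes, Pfkfb2, the heart form, was at 45.0 and 44.9 CPM in vehicle and 95.7 and 60.4 CPM with BT2. It rose by 0.80 ± 0.19 on the log2 scale (edgeR adjusted p = 0.012), a call lost without either vehicle library at 24 h (adjusted p up to 0.0661). Its log2 change was 0.41 to 1.09 over the alternatives. Pfkfb1, Pfkfb3 and Pfkfb4 did not pass, with log2 values of -0.05, -0.42 and -0.34.

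**Figure D4:**
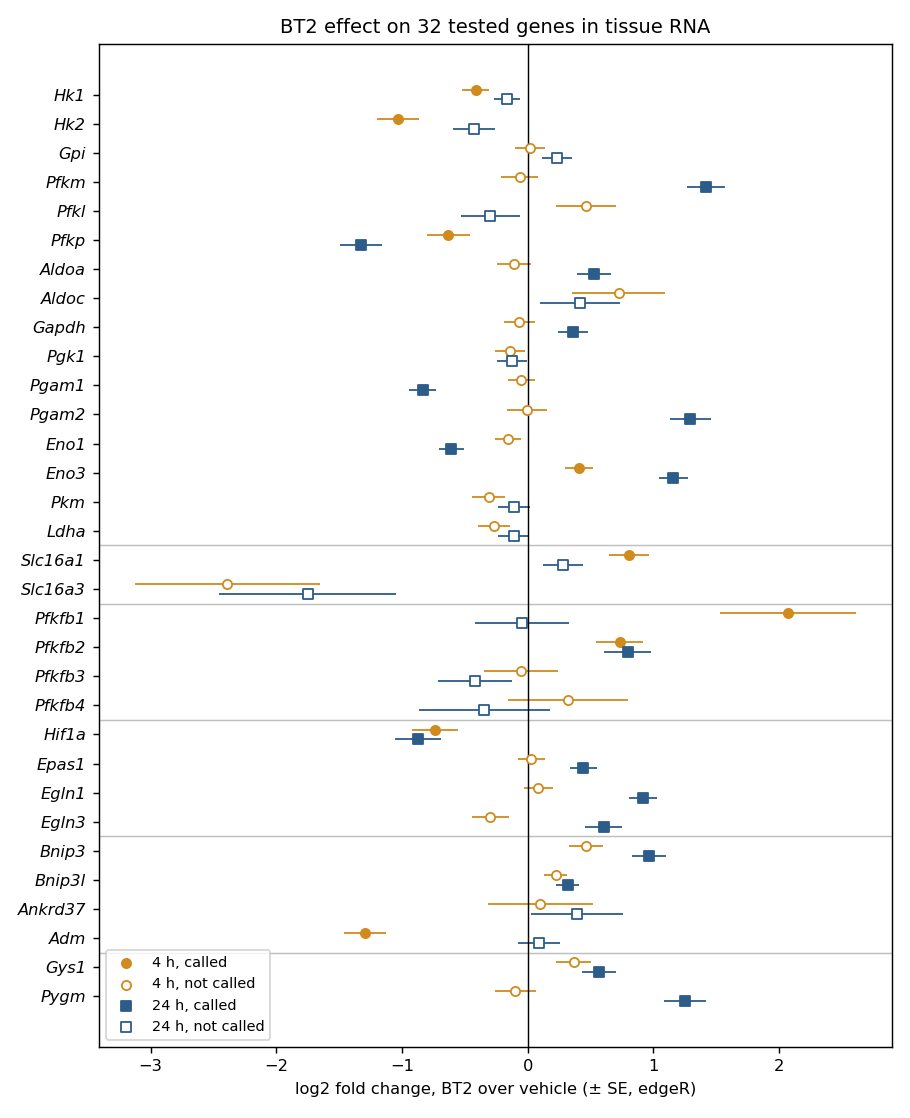
Log2 fold change of BT2 against vehicle (horizontal axis) for each tested member at 4 h (circles) and at 24 h (squares), ordered by role. Bars are standard errors, and filled symbols passed the edgeR test. More members pass at 24 h (17) than at 4 h (9), and the muscle isoforms Pfkm, Pgam2 and Eno3 lie opposite to Pfkp, Pgam1 and Eno1 at 24 h.

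At 4 h fewer members passed. In all, 4 rose and 5 fell, against 16.4% of all genes tested (6.67% higher and 9.73% lower), and 21 of the 32 tested members had no overlap, against 59.2% of all genes. The median log2 fold change was -0.05 for the members and 0.0034 for all genes. None of the 9 calls was kept under all alternatives. Without BT2 4 h replicate 2 no member passed by edgeR (12 at unadjusted p under 0.05), and without vehicle 4 h replicate 2 only 1 did, against 9 without vehicle 4 h replicate 1 and 4 without BT2 4 h replicate 1. DESeq2 called 11 on all libraries. The 9 log2 fold changes kept their sign in every alternative.

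Both hexokinases, which trap glucose in the cell, fell at 4 h. Hk2, the inducible form, was at 431 and 571 CPM in vehicle and 239.6 and 249.9 CPM with BT2, and fell by 1.03 ± 0.17 on the log2 scale (edgeR adjusted p = 0.0119). Its vehicle libraries at 4 h were the highest of all 8, and at 24 h it was at 143 CPM in both vehicle libraries and at 121 and 90.9 CPM with BT2. Hk1, the housekeeping form, was at 349 and 384 CPM in vehicle and 284 and 265 CPM with BT2 at 4 h, and fell by 0.42 ± 0.10 (edgeR adjusted p = 0.0328). Pfkp was at 69.8 and 51.9 CPM and at 37.2 and 41.0 CPM, and fell by 0.63 ± 0.17 (edgeR adjusted p = 0.041). Eno3 was at 359 and 404 CPM and at 494 and 518 CPM, a rise of 0.41 ± 0.11 (edgeR adjusted p = 0.0435). Groups did not overlap in any of these 4 genes.

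Slc16a1 rose at 4 h, from 399 and 312 CPM in vehicle to 645 and 599.8 CPM with BT2, a log2 change of 0.81 ± 0.16 (edgeR adjusted p = 0.0175). Slc16a3 was at 20.7 and 80.3 CPM in vehicle and 6.34 and 12.8 CPM with BT2. Its vehicle libraries differed by more than the remaining gap to BT2, and the log2 difference of -2.39 ± 0.74 missed the threshold (edgeR adjusted p = 0.0718). The vehicle library with the higher Slc16a3 also had the higher summed level of 9 neutrophil markers, 1880 CPM against 604 CPM in its replicate and 203 and 305 CPM with BT2. At 4 h 5 of the 9 neutrophil markers were lower with BT2 and 0 higher by edgeR (8 and 0 at unadjusted p under 0.05, 7 and 0 by DESeq2), and none was at 0. Their part in the 4 h results was not tested.

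Pfkfb2 rose at 4 h as at 24 h, from 64.0 and 64.6 CPM to 103 and 111 CPM (0.73 ± 0.19 log2, edgeR adjusted p = 0.0367). Pfkfb1, the liver and muscle form, rested on 4 and 4 counts in vehicle against 12 and 34 counts with BT2, or 0.435 and 0.280 CPM against 0.951 and 1.92 CPM (2.07 ± 0.54 log2, edgeR adjusted p = 0.037). Hif1a was at 161 and 207 CPM in vehicle and 119 and 102 CPM with BT2 at 4 h, and fell by 0.74 ± 0.18 (edgeR adjusted p = 0.0314). Eno3 and Pfkfb2 were thus higher at both times, and Pfkp and Hif1a lower at both.

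Adm, which encodes the vasodilator peptide adrenomedullin and is induced by HIF, had the smallest p of any member at 4 h. It was at 38.5 and 45.8 CPM in vehicle and 18.5 and 16.0 CPM with BT2, and fell by 1.30 ± 0.17 on the log2 scale (edgeR adjusted p = 0.00954). The call was lost without BT2 4 h replicate 2 (adjusted p = 0.0575). At 24 h it was at 13.2 and 10.3 CPM in vehicle and 11.7 and 13.3 CPM with BT2, where the groups overlapped (0.09 log2, edgeR adjusted p = 0.701). Other HIF targets moved both ways at 4 h, with 4 higher and 9 lower of 37, beside 6.67% higher and 9.73% lower of all genes. Ddit4, an inhibitor of mTORC1, was at 24.0 and 23.7 CPM in vehicle and 59.9 and 81.2 CPM with BT2 (1.57 ± 0.23 log2, edgeR adjusted p = 0.011). Pgf, a placental growth factor, fell by 2.40 ± 0.32 (edgeR adjusted p = 0.0109). Rora and Insig2 rose by 0.64 ± 0.13 and 0.45 ± 0.11, and Wsb1 fell by 0.78 ± 0.11. Of the HIF regulators 0 rose (0 at unadjusted p under 0.05, 0 by DESeq2) and 2 fell by edgeR, Cited2 by 2.16 ± 0.22 and Siah2 by 0.98 ± 0.20. Of the other glycogen genes 2 rose and 3 fell, and of the other glycolysis genes 1 rose (Galm) and 1 fell (Hk3).

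The passage from 4 h to 24 h was followed within each treatment. In vehicle, 6 members rose and 17 fell, against 47.1% of all genes (23.3% higher and 23.8% lower). With BT2, 1 rose and 8 fell, against 23.3% of all genes (11.7% higher and 11.6% lower). The counts for the 2 treatments were not tested against each other. Of the 23 vehicle calls, 14 were kept under all 9 alternatives, and of the 9 with BT2, 4 (Eno3, Epas1, Hk2 and Pgam2). The effects of BT2 and of time share libraries, so they are given side by side only.

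In vehicle, Pgam2 fell by 2.32 on the log2 scale between the times, Pfkm by 1.98, Hk2 by 1.81, Adm by 1.85 and Pygm by 1.71. With BT2 the corresponding log2 changes were -1.03 for Pgam2, -0.50 for Pfkm, -1.21 for Hk2, -0.46 for Adm and -0.36 for Pygm, where Adm and Pygm did not pass the edgeR test. The Pfkm call with BT2 was lost without either BT2 library at 4 h or BT2 24 h replicate 2 (adjusted p up to 0.205), and also with upper quartile factors, with only the libraries compared and with the replicate block. The hydroxylase genes differed likewise, with -0.99 for Egln1 and -0.89 for Egln3 in vehicle and -0.16 and 0.01 with BT2. Pfkp and Pgam1 rose in vehicle, by 0.94 and 0.63, and gave 0.25 and -0.16 with BT2, neither past the test. Pfkfb3, an inducible bifunctional enzyme, fell in both treatments, by 1.22 and 1.58, calls that were lost when single libraries were left out (vehicle 4 h replicate 1 or 2 or vehicle 24 h replicate 2, and either BT2 library at 24 h, with adjusted p up to 0.0942 and 0.0708).

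The difference between the BT2 effects at the 2 times passed the edgeR test for 8 members, 7 with the larger value at 24 h and 1 (Pgam1) with the lower, against 7.14% of all genes (4.72% and 2.43%). Beside the 4 isoforms above, these were Pygm (1.35 ± 0.23 log2, adjusted p = 0.0222), Adm (1.38 ± 0.23, adjusted p = 0.0215), Egln1 (0.83 ± 0.16, adjusted p = 0.0276) and Egln3 (0.91 ± 0.21, adjusted p = 0.0404). None of the 8 was kept under all 12 alternatives, and no member passed by edgeR when BT2 4 h replicate 2 (11 at unadjusted p under 0.05), vehicle 24 h replicate 1 (13) or 2 (11), or BT2 24 h replicate 1 (13) was left out. DESeq2 called 10 on all libraries.

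In nuclei at 24 h, 11372 of 11540 barcodes from vehicle and 10324 of 10497 from BT2 were kept, and 37 barcode sequences occurred in both libraries. With 1 library per group there is no test, and intervals cover counting error only. One cluster, with all 12 cardiomyocyte markers detected, is called cardiomyocyte-like. A further cluster also had all 12 detected but was left unnamed. Its nuclei were over 3 times as deep as their libraries, a limit set after the clusters were seen. Among its 10 top genes 0 were cardiomyocyte markers, and they included Spp1, Slfn4, Fcer1g and Csf2ra. Spp1 was also a top gene of a macrophage or monocyte-like cluster. The cardiomyocyte marker score was 2.12 in the unnamed cluster and 4.72 in the named one. Whether the unnamed cluster mixes cell types was not tested. The named cluster held 858 nuclei in vehicle (7.55%, exact binomial 95% interval 7.07 to 8.05) and 897 with BT2 (8.69%, 8.15 to 9.25), with median depths of 6281 and 3648 UMIs (unique molecules counted). With the unnamed cluster counted in, the class held 1125 nuclei in vehicle (9.89%, 9.35 to 10.5) and 1005 with BT2 (9.74%, 9.17 to 10.3), so the order of the shares rests on that choice. Nuclear RNA is rich in unspliced transcripts.

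Relative to all UMIs of a class, several members were most abundant in cardiomyocyte-like nuclei among 11 named classes (each with 100 or more nuclei per library). Pygm was at 74.0 CPM in vehicle and 63.2 CPM with BT2 there and at most 8.19 and 7.44 CPM in any other class. Slc16a1 was at 252 and 152 CPM there and at most 38.0 and 27.5 CPM elsewhere. Pfkm was at 49.1 CPM (95% Poisson interval 43.8 to 54.9) and 38.4 CPM (33.2 to 44.4), and at most 14.0 and 19.2 CPM elsewhere. Pfkp, the ubiquitous form, was also highest there, at 96.8 and 101 CPM, with smooth muscle-like nuclei next at 55.6 and 75.0 CPM. Egln3 was at 29.5 and 31.1 CPM, and with BT2 its interval (26.3 to 36.4) held the level of the next class, lymphatic endothelial-like nuclei (30.5 CPM).

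The HIF alpha subunits had other orders. Epas1 was highest in vascular endothelial-like nuclei, at 943 and 833 CPM, followed by pericyte-like nuclei at 808 and 635 CPM, and lowest in macrophage or monocyte-like nuclei, at 30.7 and 64.8 CPM. Hif1a was highest in lymphatic endothelial-like nuclei, at 445 and 377 CPM, and lowest in cardiomyocyte-like nuclei, at 86.1 and 99.4 CPM. Cardiomyocyte-like nuclei held 5.59% and 8.40% of all Hif1a UMIs, against 64.1% and 73.8% of Pygm UMIs, 46.6% and 40.4% of Pfkm UMIs, 33.8% and 33.7% of Pfkp UMIs and 29.6% and 45.2% of Eno3 UMIs. The class held 13.9% and 15.1% of the UMIs of all genes. With the unnamed deep cluster counted in, the shares were 22.8% and 11.8% for Hif1a and 79.0% and 75.7% for Pygm. They were then 60.8% and 42.6% for Pfkm, 47.3% and 36.5% for Pfkp and 47.45% and 47.1% for Eno3. The order of vehicle and BT2 thus rests on that choice for several of these genes.

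Within cardiomyocyte-like nuclei, 28 members had at least 20 UMIs in both libraries together. The counting interval of the ratio of BT2 to vehicle lay above 1 for 4 of them, below 1 for 9 and included 1 for 15. The share of all genes with an interval clear of 1 was not computed. Such counts, here and below, therefore have no background and are not read as a result about the members. None of the members passed 2-fold (0 of 28), against 6.56% of 12838 genes. Gapdh had the largest ratio, 1.88 (95% Poisson interval 1.44 to 2.46), followed by Eno3 at 1.55 (1.08 to 2.23), Aldoa at 1.28 (0.987 to 1.67), Egln1 at 1.25 (1.10 to 1.42) and Pfkl at 1.17 (0.822 to 1.67). The smallest were Bnip3 at 0.541 (0.428 to 0.680), Slc16a1 at 0.604 (0.553 to 0.659), Pgam1 at 0.681 (0.540 to 0.856), Slc16a3 at 0.684 (0.251 to 1.72) and Pfkfb3 at 0.709 (0.641 to 0.784). The median log2 ratio was 0.06 for the members and 0.0022 for all genes, and its sign turned with nuclei of at least 1000 UMIs and with finer clusters (-0.00218 and -0.07). With the unnamed cluster of deep nuclei counted in, 29 members had enough UMIs, and the interval lay above 1 for 9 and below 1 for 7. The ratio of Slc16a3 was then 0.340 (0.183 to 0.587), past 2-fold, and that of Slc16a1 0.914 (0.840 to 0.994). In vehicle Slc16a3 stood at 7.60 CPM with that cluster and 2.39 CPM without it. Its highest class was neutrophil-like nuclei, at 79.2 CPM in vehicle.

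Tissue and nuclear directions differed for several members. Pfkm had a nuclear ratio of 0.783 (0.649 to 0.941), Bnip3 0.541 and Pygm 0.854 (0.737 to 0.988), all below 1, whereas all 3 were higher with BT2 in tissue at 24 h. Of 12 such members with enough UMIs, 6 had a nuclear ratio above 1 and 6 below. Several of these values turned with the deep cluster counted in, whose mix of cell types was not tested. Then Pfkm was at 1.11 (0.936 to 1.33), Pygm at 1.25 (1.09 to 1.44), Hif1a at 0.704 (0.645 to 0.767) and Bnip3 at 0.784 (0.630 to 0.970), and 10 of 13 higher members had a ratio above 1. Of the 4 members lower in tissue, Pgam1 was below 1, and Pfkp (1.04), Eno1 (1.15) and Hif1a (1.15, 1.02 to 1.31) were above, without the deep cluster. Pgam2 had 9 and 7 UMIs, too few for a ratio to be read. The log2 isoform ratio within these nuclei differed between BT2 and vehicle by -0.41 for Pfkm over Pfkp and 0.43 for Eno3 over Eno1.

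**Figure D5:**
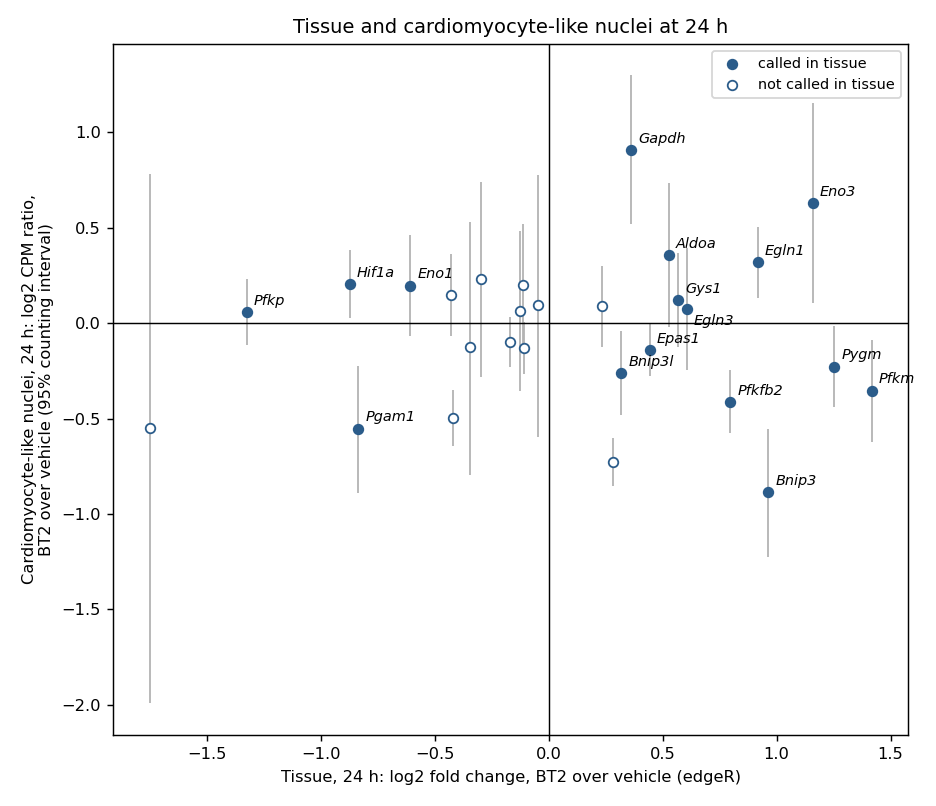
Log2 fold change of BT2 against vehicle in tissue at 24 h (horizontal axis) and log2 ratio of BT2 over vehicle in cardiomyocyte-like nuclei at 24 h (vertical axis), 1 point per member with at least 20 UMIs. The deep unnamed cluster is left out. Vertical bars are 95% intervals for counting error only, and filled points passed the edgeR test in tissue. Eno3, Egln1, Gapdh and Aldoa are above 0 on both axes, and Bnip3, Pfkm and Pygm are above 0 in tissue and below 0 in nuclei.

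Markers of other types in these nuclei differed between the libraries. The summed level of 10 fibroblast markers was 186 CPM in vehicle and 437 CPM with BT2, with 9 higher and Col1a2 at 0 in both. The 12 macrophage or monocyte markers summed to 310 and 179 CPM (3 higher, 9 lower), and the 12 cardiomyocyte markers to 74000 and 81500 CPM (6 higher, 6 lower). Their part in the ratios above was not tested, and neither was that of the difference in depth.

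Across the 11 classes, the interval of the Egln1 ratio lay above 1 in 5 and below 1 in 0, with ratios of 1.25 in cardiomyocyte-like, 1.61 in fibroblast-like, 1.46 in macrophage or monocyte-like, 1.61 in pericyte-like and 1.36 in vascular endothelial-like nuclei. The Epas1 interval lay above 1 in 5 classes and below 1 in 4. Its level was 30.7 and 64.8 CPM in macrophage or monocyte-like nuclei, a ratio of 2.11, against 782 and 426 CPM in smooth muscle-like nuclei, a ratio of 0.544. For Hif1a the interval lay above 1 in 3 classes, among them pericyte-like nuclei (139.8 and 204 CPM, a ratio of 1.46), and below 1 in 2, Schwann-like (0.653) and macrophage or monocyte-like nuclei (0.857).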

How the data were processed

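Polyadenylated RNA of the area at risk was sequenced from stranded libraries (8 tissue libraries) and nuclei from 2 libraries. The authors deposited raw counts per gene for tissue and UMI counts per barcode for nuclei. Per the submitters' processing notes, the tools were Trim Galore, STAR and featureCounts with the rat build Rnor_6.0, and per the file headers Cell Ranger 8.0.1 for nuclei. The sources used here do not give the strand setting, the annotation release or the treatment of reads matching several places, so overlapping, antisense and near-identical genes are uncertain.

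The tissue analysis used edgeR 4.0.16 (R 4.3.3). After filterByExpr, 15216 genes were scaled by TMM factors and fitted with a robust quasi-likelihood model over all 8 libraries, with 1 mean per group, 4 residual degrees of freedom and a biological coefficient of variation of 14.3%. Tests were two-sided with Benjamini-Hochberg adjustment over all genes tested, and adjusted p under 0.05 was called. Isoform ratios used counts plus 0.5 within a library. Alternatives were upper quartile factors, DESeq2 1.42.0, no filter, only the libraries compared, the sample number as a replicate block and each library left out. The sources used here do not say that the numbers pair the samples, and no pairing was used in the main fit. Deviations of equal-numbered libraries correlated at -0.0464 to 0.0965, which with 2 libraries per group does not settle whether they share handling. The script was tested on simulated data.

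Barcodes passing 500 UMIs, 200 genes and a limit of 5% mitochondrial UMIs were clustered with scanpy 1.11.5 in Python 3.11.15 (2000 variable genes, 30 principal components, 15 neighbours, resolution 0.5), giving 22 clusters. A cluster was named where its marker score was at least 1, led the next type by 0.5 and rested on at least 3 detected markers. Among its 10 top genes, markers of other types could not outnumber those of its own type. A cluster over 3 times deeper or shallower than both library medians also needed a marker of its own type there. Of the clusters, 7 stayed unnamed, holding 15.6% of vehicle and 12.1% of BT2 nuclei. They include 1 with cardiomyocyte markers, but none among its 10 top genes, and a depth over 3 times that of its library (267 and 108 nuclei). The depth limit was set after the clusters were seen. Doublets were not removed. Scrublet marked 1 of 11372 vehicle nuclei and 0 of 10324 BT2 nuclei, far below the 8% it was told to expect, so doublets may remain. An unnamed cluster (869 and 645 nuclei) scored highest for pericytes but had Csf3r, a neutrophil marker, among its top genes. Counts were summed per class and library, and intervals were computed with scipy 1.17.1.

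Members called with BT2 and the isoform pairs are given per library. Of each other list, up to 3 called genes per direction with the smallest p were taken for naming, and in nuclei the 5 largest and 5 smallest ratios. One gene that this rule names is not reported here. The members and lists were chosen with earlier results of these data known. Proteins were not used here.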

Additional observations from a re-analysis of the deposited data

Results flagged for a closer look

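For 8 members the effect of BT2 at 24 h differed from that at 4 h by a test of the difference itself (edgeR, log2 difference ± SE, over 2 libraries per group). Of all genes tested, 7.14% passed the same test. None of the 8 calls was kept under all alternatives, so each rests on the choice of libraries and settings. The muscle isoforms Pfkm (1.48 ± 0.21, adjusted p = 0.0174), Pgam2 (1.30 ± 0.23, adjusted p = 0.023) and Eno3 (0.75 ± 0.16, adjusted p = 0.0337) had the larger value at 24 h. So did the muscle phosphorylase Pygm (1.35 ± 0.23, adjusted p = 0.0222). Pgam1 had the lower value at 24 h (-0.79 ± 0.15, adjusted p = 0.0286).

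The prolyl hydroxylase genes Egln1 (0.83 ± 0.16, adjusted p = 0.0276) and Egln3 (0.91 ± 0.21, adjusted p = 0.0404) also had the larger value at 24 h. Adm was lower with BT2 at 4 h, while its libraries overlapped between treatments at 24 h (1.38 ± 0.23, adjusted p = 0.0215).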

How the results depend on the processing

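At 24 h, 9 of the 17 called members were kept under all 9 alternatives. Without single libraries the count of called members ran from 10 to 14 at 24 h, from 0 to 9 at 4 h (main 9), from 0 to 10 for the difference (main 8), from 15 to 22 for time in vehicle (main 23) and from 4 to 7 for time with BT2 (main 9). The libraries that moved a count past 1.5 times were vehicle 4 h replicate 2 (1 at 4 h, 2 for the difference), BT2 4 h replicate 1 (4 and 3), BT2 4 h replicate 2 (0, 0 and 5 for time with BT2), vehicle 24 h replicate 1 (0 for the difference), vehicle 24 h replicate 2 (10 at 24 h, 0 and 15), BT2 24 h replicate 1 (0 for the difference) and BT2 24 h replicate 2 (4 for time with BT2). With only the libraries compared, 4 members were called at 4 h, and of all genes 621 instead of 2495. For the difference, all-gene calls were 1087 with edgeR, 1819 without the filter and 0 to 1443 without single libraries. The cause was not tested.

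With the sample number as a replicate block, 7, 17, 6, 23 and 8 members were called at 4 h, at 24 h, for the difference and for time in vehicle and with BT2. With equal numbers in each group the block cannot change a difference of group means, so the 6 isoform ratio differences (0.57, 2.73, 0.56, 1.77, 0.05 and 2.13) were fixed by the design and show nothing about stability.

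Upper quartile factors moved the share of higher calls among all genes at 4 h from 40.7% to 51.1% and for time with BT2 from 50.2% to 64.5%, and the median of all genes by up to 0.112 (log2, time in vehicle). The 4 h direction of uncalled members near 0 turned: Pgam1 0.00959, Pgam2 0.0561 and Pfkfb3 0.0108 with upper quartile factors, and Pgam2 0.00345 with DESeq2, 0.00633 without the filter and 0.00146 with only the libraries compared. Without single libraries, log2 values at 4 h ran from -0.0822 to 0.13 for Gpi, -0.21 to 0.0931 for Pfkm, -0.23 to 0.0302 for Aldoa, -0.17 to 0.0514 for Gapdh, -0.17 to 0.0557 for Pgam1, -0.11 to 0.10 for Pgam2, -0.67 to 0.38 for Pfkfb3, -0.44 to 0.77 for Pfkfb4, -0.0556 to 0.12 for Epas1 and -0.27 to 0.11 for Pygm, and at 24 h from -0.33 to 0.17 for Pfkfb1 and -0.0797 to 0.28 for Adm. Outside the members, 4 h values ran from -0.28 to 0.12 for Ldhb, -0.23 to 1.06 for Fbp2 and -0.10 to 0.19 for Mxi1. The Pgam2 over Pgam1 difference at 4 h ran from -0.16 to 0.26. The nuclear median (0.06) was -0.00218 at 1000 UMIs, -0.0713 at resolution 1.0 and 0.11 with the deep cluster included, an alternative chosen after seeing the data. With that cluster the nuclear ratios of Pfkm, Pfkfb2 and Pygm turned to 1.11, 1.08 and 1.25 and that of Hif1a to 0.704. At 2 libraries per group and 1 nuclear library, small differences were not detectable.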
